A study of Mus musculus with 44 samples.

Results

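Peaks of N6-methyladenosine (m6A) at the genes Txnip, Znhit2, Mafg and Ildr2 were followed through every peak list of a study of mouse liver. The genes were chosen from those lists: at each of them a peak was listed after all 3 exposures, with either reference, and none in the control. A peak was counted when it lay in the RefSeq span of the gene, and its Ensembl identifier and strand were then read from the list. The 4 genes held 42 of the 17573 peaks in the 8 lists, under 4 of the 1512 identifiers with a peak. The presence of these peaks is therefore a description of how the genes were chosen and not a finding.

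The livers came from male mice of the inbred strain C57Bl/6J, on a high-fat diet that drew 42% of its energy from fat. Mice of 3 groups received Aroclor1260, PCB126 or both compounds (here the combination) as a single oral exposure at week 2 of a 12-week study, and control mice received vehicle on the same diet. Aroclor1260 was sold as a technical blend of heavily chlorinated PCBs, and PCB126 is a single congener that acts like dioxin as a ligand of the aryl hydrocarbon receptor. Doses were not given in the sources used here. In each group 5 m6A immunoprecipitates and 5 input libraries were sequenced, with 1 control immunoprecipitate made with IgG from a pool of the group. For each treatment, 1 list of peaks was called against input and 1 against IgG, so that the lists hold no value for a single animal, and no difference between treatments is set against the spread between mice here. In whole liver, moreover, a change in the make-up of cells and a change within cells cannot be told apart.

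m6A is the commonest internal modification of messenger RNA. It is written by a methyltransferase complex built around METTL3 and METTL14 and read by proteins with a YTH domain, which affect the decay, splicing and translation of the marked RNA. In the assay used here, MeRIP, RNA fragments bound by an antibody against m6A are sequenced, and a peak is a stretch where they exceed the reference. Txnip encodes thioredoxin-interacting protein, which restrains thioredoxin and glucose uptake and is induced by glucose. Znhit2 encodes a zinc finger HIT protein that, in human cells, works with the RUVBL1 and RUVBL2 ATPases in assembling the U5 splicing particle. Mafg encodes a small Maf protein, the DNA-binding partner of NRF2 and BACH1 at antioxidant response elements. Ildr2 encodes a membrane protein of the angulin family of tricellular junctions and has been tied to lipid handling in mouse liver.

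The lists held from 506 peaks (Aroclor1260 against input) to 4129 (PCB126 against IgG), and the control lists held 620 against input and 2091 against IgG. Of all peaks, 95.2% were on the plus strand, and no list gives the number of reads behind it. Of the 1512 identifiers, 163 (10.8%) were on the minus strand, so that genes of that strand were seldom listed. Among markers chosen for liver cell types, 8 of 12 hepatocyte, 2 of 7 endothelial, 1 of 5 Kupffer cell, 1 of 6 stellate, 1 of 5 cholangiocyte and 0 of 4 lymphocyte genes had a peak in at least 1 list, beside 1313 of 21900 protein-coding RefSeq genes (6.00%). A peak shows neither the level of an RNA nor, by its absence, that an RNA lacks m6A.

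The strand of the peaks divided the 4 genes. At Txnip and Znhit2 the identifier was on the strand of the gene. The peaks at Mafg, a minus-strand gene, belonged to the plus-strand identifier ENSMUSG00000097062, which by place and strand is the long noncoding RNA Gm17586. Those at Ildr2, a plus-strand gene, belonged to the minus-strand identifier ENSMUSG00000091393, for which the RefSeq table holds no gene on that strand. Neither Mafg nor Ildr2 had a peak under an identifier of its own strand in any of the 8 lists. For Mafg that is the minus strand, on which few identifiers were listed at all. The label of these 2 genes thus holds for the place and not for the listed identifier, and "the Mafg place" and "the Ildr2 place" are used below. Across the series, 73 of 1512 identifiers (4.83%) lay in opposite-strand genes alone, 68 of them on the minus strand, and naming by strand gave another name, or none, for 91 of the 1398 identifiers named by place. Whether reads were counted by strand is also not given in the sources used here, so reads of a gene and of its antisense partner cannot be told apart.

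Txnip had the most peaks of the 4 genes. The gene spans chromosome 3 from 96557957 to 96561857 on the plus strand of mm10, and all 21 of its peaks carried ENSMUSG00000038393. Against input there was 1 peak with Aroclor1260, 3 with PCB126 and 5 with the combination, against 0 in the control. Against IgG the numbers were 3, 4 and 5, against 0 in the control. The peaks of the 6 exposed lists fell into 5 stretches, all between 1676 and 3331 bases from the start of the gene.

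The stretch present in every exposed list ran from 96560694 to 96560941, beginning 2737 bases from the start of the gene and ending 916 bases before its end. It carried the strongest Txnip peak of each list. Against input, its fold enrichment (the authors' ratio of m6A immunoprecipitate over reference, as for all folds here) was 2.84 with Aroclor1260, 5.65 with PCB126 and 7.14 with the combination. Against IgG it was 5.05 with Aroclor1260, 14.8 with PCB126 and 6.15 with the combination. The lowest value with either reference was that after Aroclor1260, while the highest was after the combination with input and after PCB126 with IgG. The authors' false discovery rates of these peaks were between 9.12e-08 and 0.0138. All 6 peaks shared the 100 bases from 96560743 to 96560842, which were the whole of the Aroclor1260 peak against input.

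The next stretch upstream, from 96560228 to 96560595, crossed a splice junction: its exonic blocks ended at 96560359 and resumed at 96560479, with 119 bases left out between them. It was listed in 5 of the 6 exposed lists, with folds of 2.5 after PCB126 and 3.0 after the combination against input. Against IgG, the folds were 2.09 with Aroclor1260, 3.4 with PCB126 and 6.0 with the combination. The most downstream stretch, from 96561140 to 96561288, appeared in the combination lists alone, with 3.0 against input and 4.0 against IgG. The 2 most upstream stretches, from 96559633 to 96559881 and from 96559980 to 96560129, had folds from 1.37 to 2.12, below the other Txnip peaks of the same list except after Aroclor1260 against IgG, where the most upstream stretch had 2.12 and the junction stretch 2.09. Each of them was present in 4 of the 6 lists.

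A minus-strand identifier, ENSMUSG00000074398, overlapped the Txnip span. By place it fits both Txnip and the long noncoding RNA Gm15441. With Txnip set aside for its strand, it was named Gm15441, for which the RefSeq table used here gives no strand. Gm15441 covers the whole of Txnip from 96555768 to 96566801 and is known in mouse liver as an antisense partner that lowers Txnip. Its peak was listed against IgG after Aroclor1260, PCB126 and the combination, with folds of 1.85, 1.49 and 1.65, and against IgG it was absent from the control. Against input it was in none of the 4 lists. The peak joined 95 bases (144 in the combination) that ended at 96559842 with 4 bases from 96566699 to 96566702. The larger block overlapped the most upstream Txnip stretch, where the plus-strand folds in the same lists were 2.12, 1.41 and 1.88, so these bases were listed for both RNAs.

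**Figure D1:**
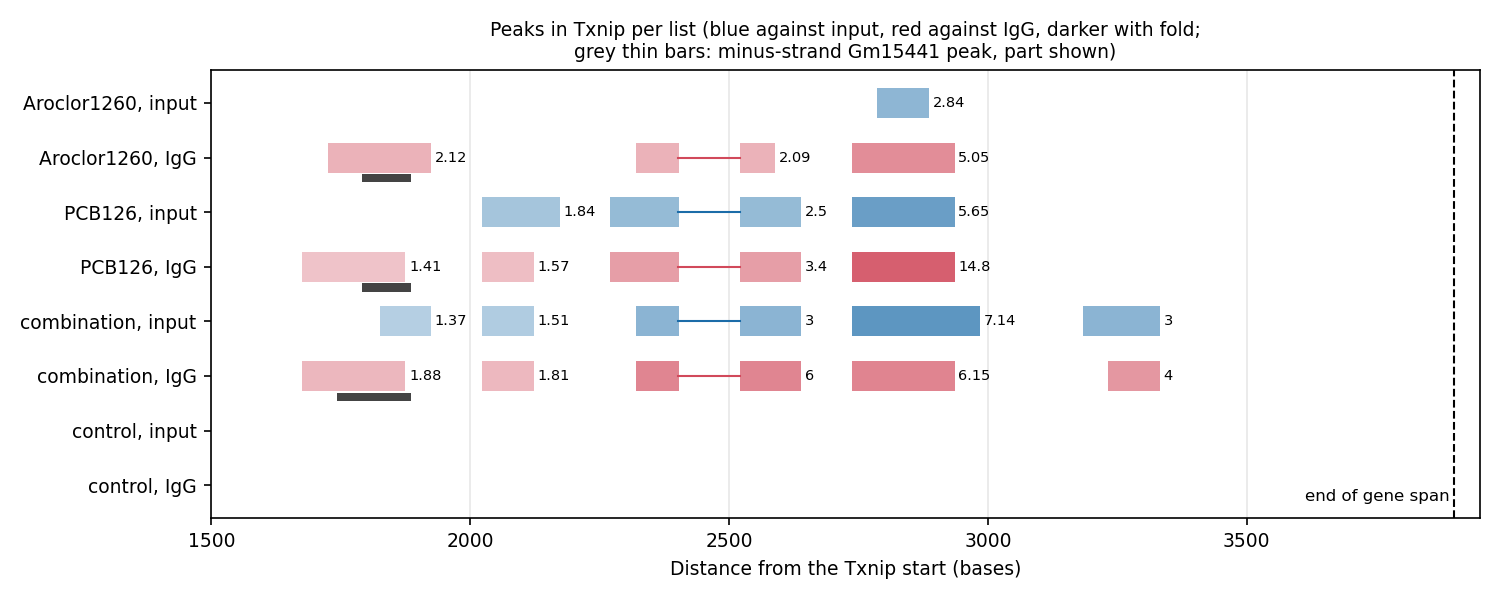
Peaks in Txnip in each peak list, by distance in bases from the start of the gene (horizontal axis), with 1 row for each treatment and reference. Blue bars are peaks called against input and red bars against IgG, thin lines join blocks across the splice junction, printed numbers are fold enrichments, and thin grey bars mark the larger block of the Gm15441 peak. The stretch that begins 2737 bases from the start is filled in all 6 exposed rows, and both control rows are empty.

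The start of Txnip is shown because it alone, of the 4 genes, held a match to a motif bound by the aryl hydrocarbon receptor. PCB126 acts through this receptor. No peak of Txnip lay in the window, and a link between the match and the peaks was not tested. The window below, from RefSeq on GRCm38.p6, is chr3:96557707-96558006 on the plus strand and covers 250 bases before the start and 50 from it. Capitals mark the single match to TNGCGTG, the core of the dioxin response element that this receptor binds, at position -53 from the start.
Txnip: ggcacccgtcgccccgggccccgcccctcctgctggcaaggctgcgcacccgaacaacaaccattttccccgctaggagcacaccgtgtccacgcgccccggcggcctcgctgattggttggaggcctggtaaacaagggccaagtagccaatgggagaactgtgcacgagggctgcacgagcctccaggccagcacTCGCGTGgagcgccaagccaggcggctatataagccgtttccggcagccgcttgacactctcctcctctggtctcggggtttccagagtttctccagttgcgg
The dioxin response core TNGCGTG, the E-box CACGTG and the antioxidant response core TGACNNNGC, with overlapping matches allowed, were searched on both strands in the window of each gene. TNGCGTG matched 1658 of 32544 promoter windows of the same length (5.09%), CACGTG 2332 (7.17%) and TGACNNNGC 4038 (12.4%). Among the 4 genes, the dioxin core matched at Txnip, the E-box at Mafg and at Ildr2, and the antioxidant core at Mafg, while the window of Znhit2 held none of them. A match describes the letters of the window and shows no binding.

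Znhit2 had a single peak in every exposed list, and it was the most enriched of the 4 genes in 5 of the 6, the exception being the combination against input, where Txnip stood higher. The gene is short, from 6061207 to 6062468 on the plus strand of chromosome 19, and its peaks carried ENSMUSG00000075227. Against input, the fold was 3.86 with Aroclor1260, 14.2 with PCB126 and 5.0 with the combination, with no peak in the control. Against IgG, it was 7.7 with Aroclor1260, 24.4 with PCB126 and 10.3 with the combination, again with no peak in the control. PCB126 gave the highest value and Aroclor1260 the lowest with either reference.

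All 6 Znhit2 peaks contained the same 99 bases, from 6062226 to 6062324, which began 1019 bases from the start and ended 144 bases before the end of the span. These were the entire peak after PCB126 with either reference and after the combination against IgG. The peak was 198 bases wide after Aroclor1260 and after the combination against input, and 148 bases wide after Aroclor1260 against IgG. The false discovery rates ran from 2.63e-06, after PCB126 against IgG, to 0.00617, after the combination against IgG. In the control, the nearest peak against IgG was in the neighbouring gene Fau, which encodes a ribosomal protein, 2936 bases upstream and with a fold of 2.2. Against input, the nearest control peak was 259 kb away, in the nuclear noncoding RNA Malat1.

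At the Mafg place, the peaks were listed under the identifier of the opposite strand. RefSeq places Mafg on the minus strand of chromosome 11 from 120625117 to 120634955, and Gm17586 on the plus strand from 120633750 to 120638102. The start of Mafg in the promoter table is 120633547, which is 203 bases from that of Gm17586, and from these starts the RNAs run apart. The RefSeq span of Mafg reaches beyond this start, however. It overlaps that of Gm17586 from 120633750 to 120634955, and all peaks at this place lay in the overlap. Every peak at this place began at least 66 bases downstream of the start of Gm17586 and none ended beyond 448 bases from it. All of them lay 269 to 651 bases upstream of the Mafg start in the promoter table, still inside the RefSeq span of Mafg. A form of Mafg that starts further upstream would therefore run through them on the other strand.

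The window that holds both starts is shown on the strand of the peaks, from RefSeq on GRCm38.p6, as chr11:120633500-120633799. It ends just before the peaks and holds the promoter-table start of Mafg on the other strand. Capitals mark the match to CACGTG, at position -167 from the start of Gm17586, and the match to TGACNNNGC, at position 11. The antioxidant response element is the sequence at which small Maf proteins such as MAFG bind DNA with their partners.
Gm17586: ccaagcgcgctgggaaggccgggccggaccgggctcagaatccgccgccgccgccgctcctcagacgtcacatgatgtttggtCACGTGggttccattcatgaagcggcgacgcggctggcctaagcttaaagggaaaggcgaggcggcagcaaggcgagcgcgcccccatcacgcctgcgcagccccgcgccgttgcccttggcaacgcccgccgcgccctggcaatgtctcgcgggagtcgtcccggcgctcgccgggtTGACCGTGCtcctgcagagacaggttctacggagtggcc

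Against input, the peak at the Mafg place had a fold of 1.75 with Aroclor1260, 3.17 with PCB126 and 3.0 with the combination. Against IgG, the strongest peak had 4.8 with Aroclor1260, 5.2 with PCB126 and 5.6 with the combination, and neither control list held a peak. These strongest values against IgG lay close together, whereas against input Aroclor1260 stood below the other exposures. Of the peaks at this place, that of Aroclor1260 against input was the nearest to the calling limit, with a false discovery rate of 0.0129 where the largest in any list was 0.0490. The PCB126 peak against input had a p-value listed as 0. The peaks were 97 to 383 bases wide, and 97 bases from 120633863 to 120633959 were in all 6 exposed lists. After Aroclor1260 against IgG the place was split into 2 peaks. The peak from 120633816 to 120634007, which held the 97 shared bases, had a fold of 2.8. The stronger peak, with 4.8, ran from 120634102 to 120634198 and lay outside them. Over the shared bases, Aroclor1260 thus stood below PCB126 and the combination with either reference.

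The Ildr2 place lay far inside the gene, which spans chromosome 1 from 166254060 to 166316832. Against input, its minus-strand identifier had 1 peak in each exposed list, with folds of 2.8 with Aroclor1260, 5.83 with PCB126 and 5.0 with the combination. Against IgG there were 2 peaks up to 3.0 after Aroclor1260, 1 of 3.8 after PCB126 and 2 up to 6.4 after the combination. There was no control peak with either reference. Between the exposures, PCB126 was highest with input and the combination with IgG, while Aroclor1260 was lowest with both. This was the only one of the 4 genes at which the PCB126 fold was lower against IgG than against input.

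Against input, the peak at the Ildr2 place was the widest at the 4 genes in each list, at 351 bases with Aroclor1260, 500 with PCB126 and 550 with the combination, and together the 8 peaks covered 700 bases from 166308886 to 166309585. The 3 input lists shared 251 of these, from 166308986 to 166309236. All 6 exposed lists shared 51 bases, from 166309036 to 166309086, and 1 further base at 166309186. The 51 bases began 54897 bases from the start of Ildr2 in the promoter table and ended 7746 bases before the end of its span. The nearest control peak was 1014 kb away against IgG and 5251 kb away against input.

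**Figure D2:**
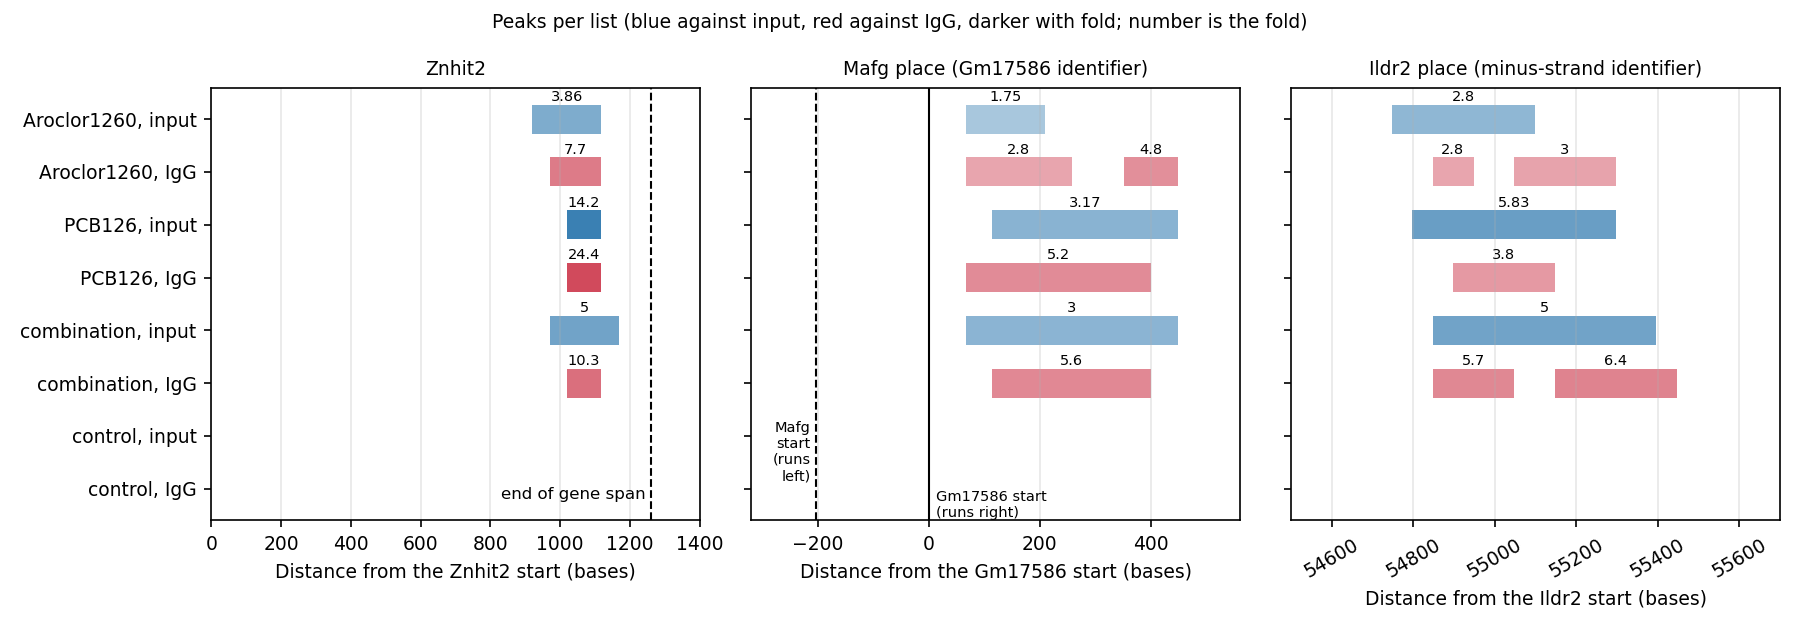
Peaks at Znhit2, at the Mafg place and at the Ildr2 place in each peak list, by distance in bases from the start of Znhit2, Gm17586 and Ildr2 (horizontal axes), with 1 row for each treatment and reference. Bars are peaks, blue against input and red against IgG, darker with higher fold, and printed numbers are fold enrichments. The Znhit2 peaks share 99 bases in all 6 exposed rows, the peaks at the Mafg place begin at least 66 bases to the right of the start of Gm17586, and the control rows are empty.

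The place of the peaks within the genes was not used to choose them. At all 4 genes the 3 exposures shared at least 1 base, both against input and against IgG. The same overlap was not counted over the 212 identifiers against input and 482 against IgG that had a peak after all 3 exposures. Whether the 4 genes differ from other genes in this is therefore not known. The shared extent was uneven and its order among the genes differed between the references. Against input, the PCB126 and combination peaks shared 87.7% of their joint bases at the Mafg place, 75.0% at the Ildr2 place, 55.7% at Txnip and 50% at Znhit2. Against IgG, the same lists shared 86.0% at the Mafg place, 25.3% at the Ildr2 place, 82.4% at Txnip and 100% at Znhit2. Aroclor1260 and the combination shared 37.6%, 38.6%, 12.5% and 59.7% at the same genes against input, and 50.7%, 42%, 58.7% and 66.9% against IgG. With a reciprocal overlap of 50%, a peak common to all 3 exposures against input was left at 1 gene, Znhit2, and against IgG at 3, with the Ildr2 place left out.

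**Figure D3:**
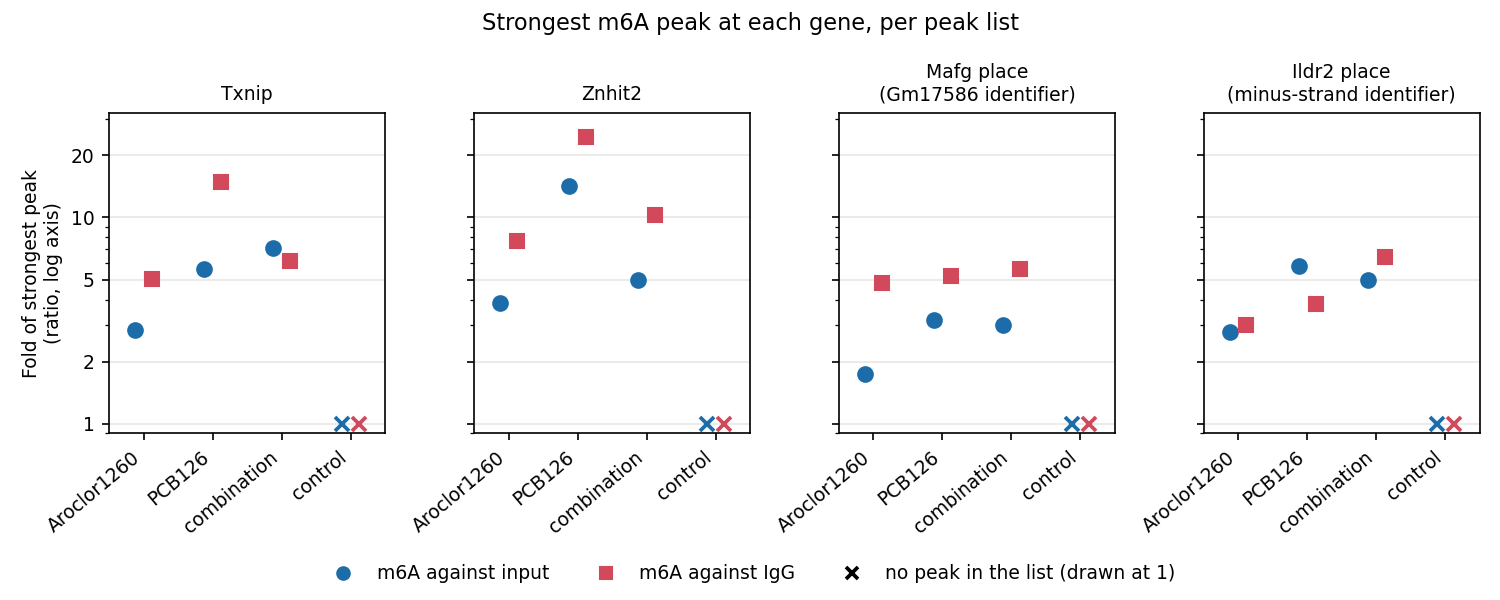
Fold enrichment of the strongest peak at each of the 4 genes (vertical axis, a ratio on a log scale) in the lists of each treatment, with blue circles for m6A against input and red squares against IgG. Crosses drawn at 1 mark lists without a peak, which are the 2 control lists at every gene. Aroclor1260 has the lowest value of the 3 exposures in all 8 sets of points.

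The exposures could be compared with the control only by presence. Against both references, 15 of the 1512 identifiers were gained with Aroclor1260 (0.992%), meaning that the exposed list held a peak where the control list held none, and these included the 4 described here by their selection. With PCB126, 225 identifiers were gained (14.9%), and with the combination 211 (14.0%). Those gained with all 3 exposures numbered 6 (0.397%). Since the lists differed in length, the same calls were made on lists cut to equal length, 506 peaks against input and 2082 against IgG with the lowest p-values. These are the lengths of the Aroclor1260 lists, which were therefore not shortened, so that all 4 genes had to stay gained with Aroclor1260. Of the 4 genes, 1, at the Mafg place, was then gained with PCB126 and 0 with the combination. Over all 1512 identifiers, 15 were gained with Aroclor1260 (0.992%), 59 with PCB126 (3.90%) and 48 with the combination (3.17%) on these lists. The cut lists were equal in length but not in stringency. Against input, the largest p-value of the authors' peak calls kept was 0.0071 with Aroclor1260, 1.5e-09 with PCB126 and 4e-10 with the combination. Against IgG it was 0.017, 1.6e-07 and 1.6e-07 in the same order. Whether list length lies behind the difference in gains was not tested. With a fold of at least 2, or with a false discovery rate of at most 0.01, the Mafg place was no longer gained with Aroclor1260, and every other call of the 4 genes stood. Txnip kept its call with Aroclor1260 against IgG at that rate only through its weaker peaks, of 2.12 and 2.09. Its strongest peak in that list, of 5.05, had a rate of 0.0138 and dropped out. At that fold, 9 of all identifiers (0.595%) were gained with Aroclor1260, 221 (14.6%) with PCB126 and 207 (13.7%) with the combination. At that false discovery rate, 13 (0.860%) were gained with Aroclor1260, 219 (14.5%) with PCB126 and 210 (13.9%) with the combination.

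The order of the exposures by fold was set beside that of all other identifiers, since each list has its own scale. Aroclor1260 had the lowest strongest fold at 4 of the 4 genes against input and at 4 of 4 against IgG. Over all identifiers with a peak in the 3 exposed lists, the same held for 201 of 212 against input (94.8%) and for 310 of 482 against IgG (64.3%). The order at the 4 genes was thus the common order of the lists against input, and no change in methylation is read from it.

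Within the lists, Znhit2 stood highest of the 4 genes after PCB126, and the Mafg place stood lowest against input. After PCB126, the strongest fold of Znhit2 was above that of 90.3% of the 724 identifiers in the list against input and above 95.3% of the 1159 in the list against IgG. Txnip stood above 64.2% and 88.0% in the same lists, and above 79.3% after the combination against input. The Mafg place stood above 19.2%, 30.5% and 28.8% of identifiers after Aroclor1260, PCB126 and the combination against input, and above 59.6%, 42.5% and 52.6% against IgG. The Ildr2 place stood above 45.4%, 65.1% and 64.4% after Aroclor1260, PCB126 and the combination against input, and above 30%, 25.1% and 60.8% against IgG.

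**Figure D4:**
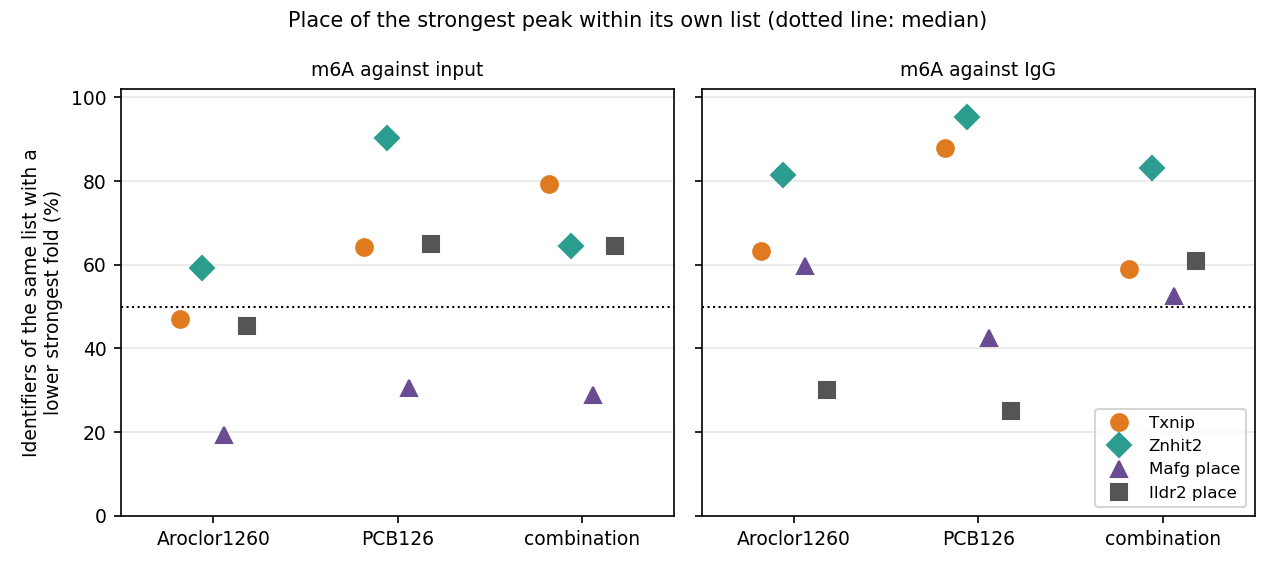
Share of the identifiers in the same list whose strongest fold was lower (vertical axis, percent), for the 4 genes after each exposure, with m6A against input on the left and against IgG on the right. The dotted line is the median of a list. Znhit2 reaches 90.3% and 95.3% after PCB126, and the Mafg place is below the line in all 3 lists against input.

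The genes also differed in their number of peaks. Txnip, with 5 peaks after the combination against input, had more than 80.4% of the 750 identifiers, where the median was 2 peaks. Znhit2, the Mafg place and the Ildr2 place had 1 peak in each exposed list against input. The folds against IgG fell on a coarse scale. Of those under 10, between 54.9% and 68.3% in the 4 lists were whole multiples of 0.2, where 5% of evenly spread values with 2 decimals would be, and against input the shares were between 9.90% and 16.4%. At the Mafg place 4 of 4 such folds against IgG were multiples of 0.2, at the Ildr2 place 4 of 5, at Txnip 3 of 11 and at Znhit2 0 of 1, which makes 11 of 21 (52.4%). Against input it was 6 of 17 (35.3%) at the 4 genes. How many reads lay behind each fold was not tested.

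Other identifiers with the pattern of the 4 genes over the 8 lists, that is, a peak in all 6 exposed lists and in neither control list, numbered 2. By place alone they lay at Zfp703, a zinc finger gene, and at Bcl9l, whose product is a coactivator of Wnt signalling, and both identifiers were on the minus strand. Of the 6 identifiers with the pattern, 3 were on the minus strand, against 10.8% of all 1512. Their strongest folds after Aroclor1260, PCB126 and the combination were 2.14, 3.43 and 3.18 at Zfp703 and 1.54, 2.86 and 1.75 at Bcl9l against input. Against IgG, they were 3.2, 5.2 and 6.6 at Zfp703 and 2.1, 4.4 and 4.8 at Bcl9l. A plus-strand identifier also lay at Zfp703 and did not have the pattern, since it lacked a peak after Aroclor1260 against input. Its folds against input were 12.7 after PCB126 and 8.67 after the combination. Against IgG it had 9.0, 12.2 and 10.6 after Aroclor1260, PCB126 and the combination.

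A further 83 identifiers differed from the pattern in 1 list, 40 of them by a control peak against IgG and 35 by the lack of a peak after Aroclor1260 against input. Of these, Shfl, Afmid and Sdr9c7 were nearest in fold to the median of the 4 genes. Their mean absolute differences on the log2 scale over the exposed lists with a peak were 0.18, 0.21 and 0.22. Shfl and Sdr9c7 lacked the Aroclor1260 peak against input, and the Afmid identifier had a control peak against IgG. Another plus-strand identifier was also named Afmid and had a control peak against input, with a fold of 2.96. For comparison, the mean absolute difference was 0.23 for Txnip, 0.33 at the Ildr2 place, 0.54 at the Mafg place and 0.77 for Znhit2.

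Relatives and partners of the 4 genes were then counted in lists of genes of the same pathways. Of the 76 genes in the 4 lists, 12 had a peak in any of the 8 peak lists (15.8%), beside the 6.00% of protein-coding genes given above. Neither expression in liver nor the scarcity of minus-strand identifiers was taken into account. The lack of a peak at a list gene is therefore not read as a trait of that gene. Among 25 genes of the thioredoxin system, its arrestin-domain relatives and glucose sensing, 3 had a peak, all against IgG alone. Arrdc3, an arrestin-domain relative of Txnip, had strongest folds of 5.73, 7.0 and 4.6 after Aroclor1260, PCB126 and the combination, against 8.6 in the control. Mlxipl, the glucose-sensing transcription factor ChREBP that drives Txnip, had 4.2, 6.6 and 2.93, against 5.2 in the control. Slc2a2, the hepatocyte glucose transporter GLUT2, had peaks after PCB126 and the combination, with 3.6 and 10.2, and none in the control or after Aroclor1260. No thioredoxin, thioredoxin reductase or peroxiredoxin gene of the list had a peak.

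Among 16 partners and targets of small Maf proteins, 4 had a peak. Bach1, the repressor that pairs with small Maf proteins, had control peaks with both references, with strongest folds against input of 6.76 after PCB126 and 5.43 after the combination, against 3.11 in the control, and no peak after Aroclor1260 against input. Against IgG, Bach1 had 4.0, 14.4 and 6.6 after Aroclor1260, PCB126 and the combination, against 7.4 in the control. Gclm, the regulatory subunit of glutamate-cysteine ligase in glutathione synthesis, had peaks after the combination alone, with 2.83 against input and 3.43 against IgG. Gclc, the catalytic subunit of that enzyme, had peaks against IgG with 3.25, 7.4 and 5.0 after Aroclor1260, PCB126 and the combination, and none in the control. Nfe2l2, Keap1, Maff and Mafk had no peak in any list.

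In the list of zinc finger HIT and R2TP genes, 1 of 16 had a peak: Znhit6, a box C/D snoRNP assembly factor, after PCB126 against IgG, with a fold of 2.8. Of the 19 angulin and tight junction genes, 4 had a peak. Cldn3, a claudin of tight junctions, was listed in all 8 lists, with folds of 4.13, 8.78 and 5.25 after Aroclor1260, PCB126 and the combination, against 4.51 in the control, all against input. Against IgG, its folds were 5.51, 7.52 and 6.67 in the same order of exposures, against 4.53 in the control. Cldn2, a pore-forming claudin, and Marveld1 had peaks against input after PCB126 and the combination, and both had control peaks against IgG. F11r, the junctional adhesion molecule JAM-A, had a peak after PCB126 against IgG, with a fold of 9.0. Of the 12 list genes with a peak, 0 were gained with Aroclor1260 and 1 with the combination (Gclm) against both references. Of all 1355 named loci with a peak, 12 were gained with Aroclor1260 and 191 with the combination.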

How the data were processed

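The samples were 44 liver libraries of 4 treatments. Per the submitters' processing notes, BWA 0.7.17, Trimmomatic, bcl2fastq 2.20.0.422 and FastQC 0.10.1 were used with mm10, in an unstated order. The deposited peak lists are titled as MeTPeak output, 1 for each treatment and reference, with version, settings and annotation not given in the sources used here. Per the file headers, each peak has a fold enrichment (a linear ratio), a p-value and 2 log10 values (p and false discovery rate), all computed by the authors.

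Starts were counted from 1. Identifiers were named with RefSeq spans of GRCm38.p6 that held at least 80% of their exonic peak bases, with the strand taken from the RefSeq promoter table (1108 on the same strand, 301 where it gives none). Overlap meant at least 1 base. The 4 genes, the gene lists and the motifs were chosen with earlier results of these data known. Named genes were the 4 genes, overlapping identifiers, list genes with a peak (up to 5 a list, with 1 not reported here) and the 5 identifiers nearest in pattern. The lists pool the animals of a treatment, so no test across animals was made and all values are descriptions. Depth is unknown, which limits the precision of every fold. Naming was tested on simulated data. Python 3.11.15 and pandas 2.3.3 were used.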

Additional observations from a re-analysis of the deposited data

How the results depend on the processing

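No paired analysis was possible because a list gives the peaks of all animals of a treatment at once, and for the same reason no replicate could be left out. With identifiers on the gene's own strand only, 2 of the 4 genes were gained with each exposure in place of 4, and with lists of equal length 1 was gained with PCB126 and 0 with the combination, where by construction the longer lists lose most peaks and the Aroclor1260 lists none, while over all 1512 identifiers 15, 59 and 48 were gained with Aroclor1260, PCB126 and the combination. A reciprocal overlap of 50% left 1 gene with a peak common to all exposures against input. The remaining calls of gain and of shared place stayed within 1.5 times. With IgG in place of input, the strongest folds after Aroclor1260, PCB126 and the combination were 5.05, 14.8 and 6.15 for Txnip, 7.7, 24.4 and 10.3 for Znhit2, 4.8, 5.2 and 5.6 at the Mafg place, and 3.0, 3.8 and 6.4 at the Ildr2 place, and the cause was not tested. Gained genes of the pathway lists became 1 with PCB126 and 1 with the combination for the thioredoxin list (0 and 0 against input). They became 1, 2 and 2 with Aroclor1260, PCB126 and the combination for the small Maf list (0, 1 and 1), 1 with PCB126 for the HIT list (0), and 1 with PCB126 and 0 with the combination for the tight junction list (2 and 2), and the cause was not tested. Over all 1512 identifiers, 192 were gained with Aroclor1260, 605 with PCB126 and 503 with the combination against IgG. Against input these counts were 71, 477 and 504 in the same order. Unknown depth limits every fold and every absence.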
